A study of Mus musculus with 22 samples.

Results

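RNA-seq libraries from the livers of chow-fed mice at ZT18 were compared with those at ZT0. The labels name the cells HSC, which commonly stands for hepatic stellate cells. Zeitgeber time (ZT) counts the hours from lights on, so ZT18 is the middle of the dark phase, when mice are awake and feed, and ZT0 is the moment the lights come on. The comparison took the 3 libraries labelled control at ZT18 and the 3 labelled control at ZT0, which are 6 of the 22 libraries of the series, and covered every gene of the count table: 22409 genes passed a filter on low counts and were tested, of 55367 listed. The mice of both groups ate chow only, had no treatment and were 20 weeks old. The other libraries share in the estimate of the spread: 4 from chow-fed mice at ZT6 and ZT12 (2 each) and 12 from mice given CDA-HFD (high in fat, deficient in choline, with defined amino acids), with 3 at each of the 4 times. One label gives that diet from 8 weeks of age for 12 weeks and another field gives 6 months, which touches only the comparison by diet at the end. The sources used here give no strain, sex, sort or gate, nor how many mice stand behind a library. The p-values therefore reflect only how far these libraries vary, which could be technical variation.

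The ZT18 libraries held 24471404, 26918813 and 28590269 counts, and the ZT0 libraries 28580761, 20775403 and 23755454. A single rRNA entry, CT010467.1 (GRCm38 chromosome 17, 39846353 to 39848827), took 13.78%, 10.55% and 11.28% of the counts at ZT18, against 17.71%, 21.27% and 21.27% at ZT0. Among the 6 libraries, replicate 1 of ZT18 (-121.4) and replicate 2 of ZT0 (84.7) lay at the ends of the first principal component, which held 29.1% of the variance. The cell type label was checked against markers: 28 endothelial markers together had 47180, 46570 and 44490 CPM (counts scaled to the same library total) at ZT18, against 57830, 33630 and 59720 CPM at ZT0. The 24 stellate cell and fibroblast markers together had 1315, 841 and 918.8 CPM at ZT18, against 893.7, 360.6 and 561.3 CPM at ZT0. Among them Lrat, which makes the stored retinyl esters of stellate cells, had 3.16, 1.53 and 1.74 CPM at ZT18, against 1.26, 1.96 and 0.435 CPM at ZT0. Endothelial markers were thus abundant in all 6 libraries and Lrat was barely present, which goes against the label, so the libraries are called liver cell libraries here. Because they are bulk libraries, fewer cells of a type and less RNA per cell cannot be told apart in any result below.

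Between ZT18 and ZT0, 713 genes were called changed in chow at an adjusted p under 0.05 (edgeR quasi-likelihood test with Benjamini-Hochberg adjustment), which is 3.18% of those tested. The 332 higher genes were 1.48% and the 381 lower genes 1.7% of all tested. The higher genes included clock repressors, immediate early genes, chaperones and adrenocortical steroid genes, which held the largest differences, and the lower ones included genes of dendritic and other myeloid cells. Over 2-fold, 158 genes were higher and 226 lower. The 2 groups did not overlap in 702 of the called genes, and in 4040 of all genes tested. A gap between the groups was thus nearly given once a gene was called. Without either library at the ends of the first component the test called 1293 genes (779 higher and 514 lower), of which 533 were among the 713. Leaving out 1 chow library at a time gave 453 to 1357 calls, the most without replicate 2 of ZT0, and 287 genes were called in all 6 of these fits. With library size as the only scaling the split turned to 602 higher and 273 lower, and the median log2 difference of all tested genes was 0.06 in place of -0.05. With the 6 compared libraries alone, 199 genes were called.

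**Figure D1:**
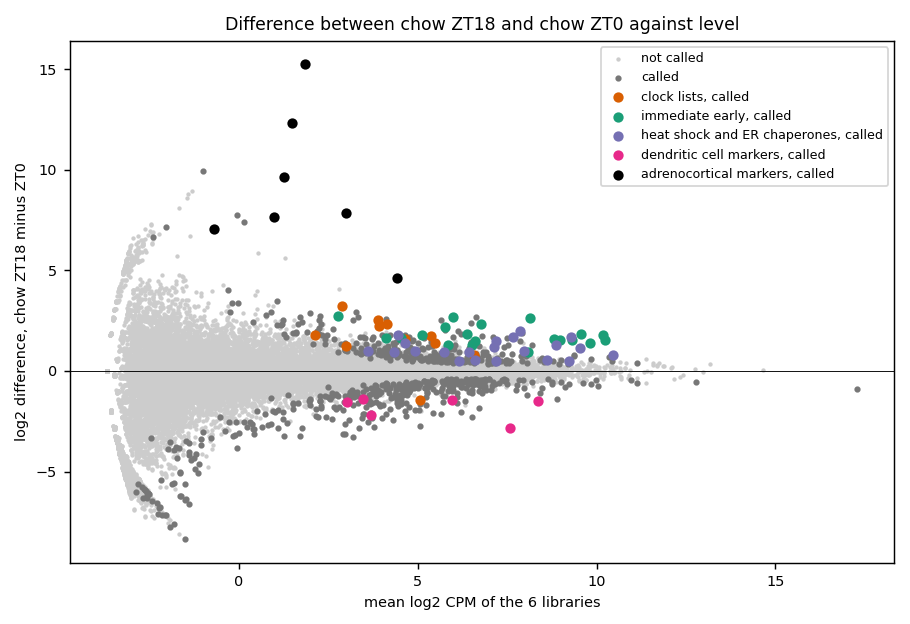
Mean log2 CPM over the 6 chow libraries (horizontal axis) against the log2 difference between ZT18 and ZT0 (vertical axis) for all 22409 tested genes. Each point is a gene, and the 713 called genes are dark grey or, in the lists named in the legend, coloured; the clock, immediate early and chaperone lists lie mostly above 0 and the dendritic cell markers below it.

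The circadian clock of mammalian cells is a feedback loop. BMAL1 (encoded by Arntl) and CLOCK bind E-boxes and switch on the Per and Cry genes, whose proteins then repress BMAL1 and CLOCK. REV-ERB proteins (Nr1d1, Nr1d2) repress Arntl through ROR elements, and the PAR bZIP factors Dbp, Tef and Hlf carry the rhythm to other genes through D-boxes.

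Of 10 core clock repressors, 8 were higher at ZT18 and none was called lower, with a median log2 difference of 1.68 (all tested genes, -0.05). The share called was 80%, against 3.18% of all tested genes. The period gene Per2 (chromosome 1, 91415982 to 91459324) had 13.7, 30.04 and 28.5 CPM at ZT18, against 3.52, 2.97 and 1.21 CPM at ZT0, a log2 difference of 3.22 ± 0.47 (SE; adjusted p = 0.00044, edgeR). Per3 (chromosome 4, 151003652 to 151044665) had 30.4, 36.2 and 32.4 CPM at ZT18, against 8.75, 5.94 and 6.19 CPM at ZT0 (2.24 ± 0.22). Cry2, a cryptochrome (chromosome 2, 92403646 to 92434043), had 40.7, 49.9 and 29.9 CPM at ZT18, against 8.75, 7.85 and 7.11 CPM at ZT0 (2.34 ± 0.25). For these 3 genes every ZT18 library lay above every ZT0 library, which was also a condition of the naming rule that picked them. Cry1 differed by 1.76 ± 0.22, Per1 by 1.39 ± 0.16, Nr1d2 by 1.59 ± 0.16, and Ciart, a repressor that binds BMAL1, by 1.81 ± 0.35 on the log2 scale. Bhlhe40, an E-box repressor also known as DEC1, had the smallest called difference (0.80 ± 0.21, adjusted p = 0.0427, edgeR) and was called in 1 of the 6 fits that leave out a library. The other two repressors were not called. Nr1d1 overlapped, with 25.8, 33.5 and 29.7 CPM at ZT18 and 50.5, 26.5 and 40.96 CPM at ZT0, while Bhlhe41 had 2.67, 1.53 and 2.26 CPM at ZT18, against 0.688, 1.39 and 0.58 CPM at ZT0 (adjusted p = 0.275, edgeR).

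Of 7 core activators, Arntl (chromosome 7, 113207465 to 113314126) was the only one called (14.3%, against 3.18% of all tested genes), and it was lower. It had 15.7, 25.6 and 20.8 CPM at ZT18, against 62.9, 41.7 and 63.7 CPM at ZT0 (log2 difference -1.44 ± 0.27, adjusted p = 0.00336, edgeR), so the groups did not overlap. Its partner Clock had 32.4, 32.4 and 27.5 CPM at ZT18 and 32.6, 20.4 and 29.4 CPM at ZT0 (0.16 ± 0.20). The log2 differences of Rora, which activates Arntl (0.37 ± 0.27), and of Npas2, a relative of Clock (0.08 ± 0.74), did not pass the test. Rorb and Arntl2 stayed under 1 CPM in all 6 libraries. Among the 4 bZIP factors, Tef (chromosome 15, 81802421 to 81826863) had 36.1, 34.7 and 37.4 CPM at ZT18, against 6.76, 7.09 and 4.59 CPM at ZT0 (2.55 ± 0.29), and Dbp had 12.8, 14.1 and 10.4 CPM at ZT18, against 6.23, 3.59 and 5.66 CPM at ZT0 (1.26 ± 0.22). Hlf had 2.87, 2.04 and 2.19 CPM at ZT18, against 0.115, 0.383 and 0.919 CPM at ZT0, which missed the threshold (adjusted p = 0.0791, edgeR). Nfil3, which competes with the PAR factors for D-boxes, differed by 0.18 ± 0.30. Of 29 clock-controlled output genes 5 were called (17.2%). Among them Wee1, a kinase that holds back entry into mitosis, had 24.6, 40.05 and 26.6 CPM at ZT18, against 9.4, 8.33 and 8.37 CPM at ZT0 (1.81 ± 0.23).

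The 2 chow libraries each at ZT6 and ZT12 set these differences in the day. Nr1d1 averaged 39.3 CPM at ZT0, then 403.1 CPM (ZT6), 262.4 CPM (ZT12) and 29.6 CPM (ZT18), so the times compared here are both far below its level in the light phase. Dbp averaged 5.16, 53.6, 114 and 12.4 CPM over these 4 times, and Tef 6.15, 28.6, 62.2 and 36.1 CPM. Per1 averaged 27.7, 31.7, 64.1 and 72.4 CPM and Cry1 22.8, 17.98, 52.6 and 77.2 CPM over the same times, which put the ZT18 means highest. Arntl averaged 56.1, 23.3, 6.73 and 20.7 CPM. With 2 libraries at ZT6 and at ZT12, the order of neighbouring means was not tested.

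**Figure D2:**
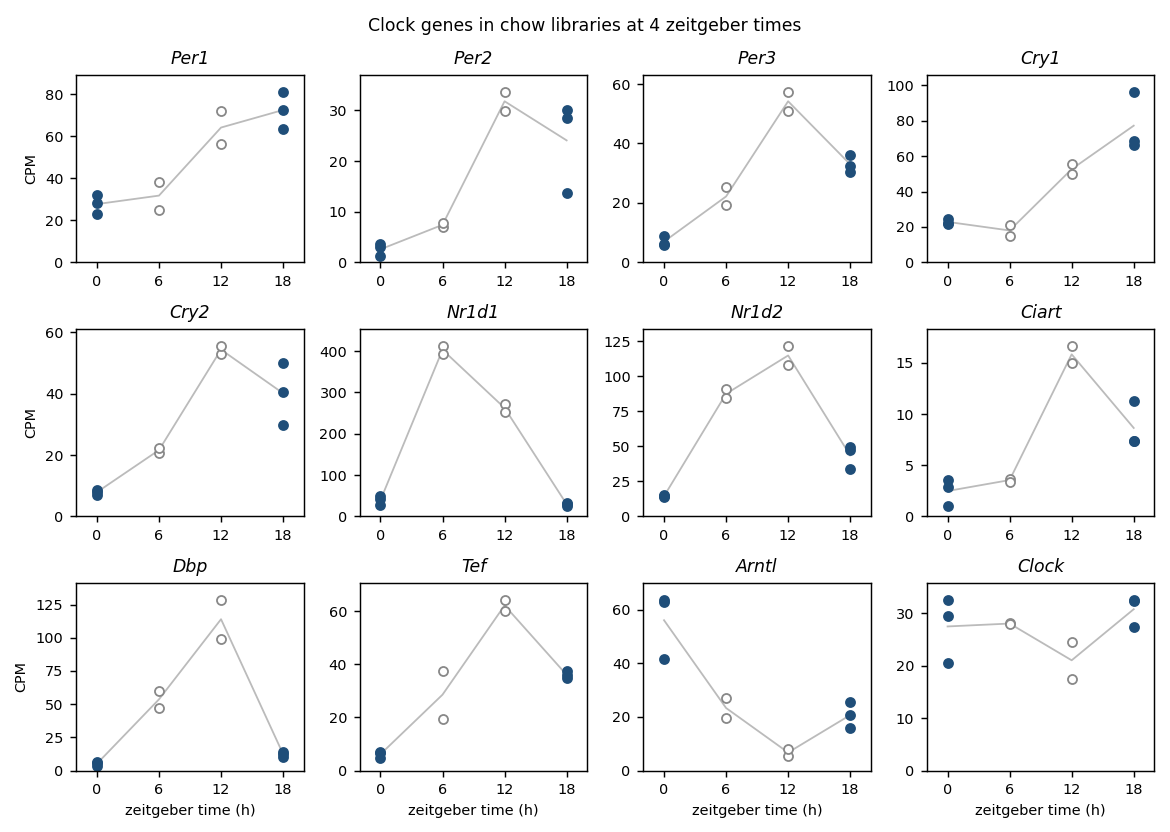
Level in CPM (vertical axis, from 0) of 12 clock genes in every chow library at zeitgeber times 0, 6, 12 and 18 h (horizontal axis). Filled points are the ZT0 and ZT18 libraries compared here (3 each), open points the ZT6 and ZT12 libraries (2 each), and grey lines join group means; Per2, Per3 and Cry2 are high and Arntl is low at ZT18 relative to ZT0, while Nr1d1 is low at both.

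Promoter windows of the called genes of 300 bases around the start (RefSeq, GRCm38.p6), were searched on both strands, and those below are shown because they carry the motifs of the clock loop. The E-box CACGTG was found in 4 of the 9 called clock genes that had a window (Ciart, Cry1, Per1 and Tef). By windows these were 5 of 12, against 7.15% of 32851 windows of 27025 genes. It also stood in 3 of 20 windows of called immediate early genes, 3 of 17 of heat shock genes and 1 of 6 of ER chaperone genes. The D-box TTANGTAA was found in Per3 (2.32% of all windows), and the ROR element, searched as TAGGTCA or TGGGTCA, in Arntl (6.45%). Ciart held E-boxes at 116, 58 and 44 bases before its start, Cry1 at 60 bases before, and Per3 held D-boxes at 205 and 158 bases before. A match describes the letters of the window and not binding. Capitals mark the E-boxes of Ciart (chr3:95882179-95882478, minus strand) and Cry1 (chr10:85185005-85185304, minus strand) and the D-boxes of Per3 (chr4:151044616-151044915, minus strand).
Ciart: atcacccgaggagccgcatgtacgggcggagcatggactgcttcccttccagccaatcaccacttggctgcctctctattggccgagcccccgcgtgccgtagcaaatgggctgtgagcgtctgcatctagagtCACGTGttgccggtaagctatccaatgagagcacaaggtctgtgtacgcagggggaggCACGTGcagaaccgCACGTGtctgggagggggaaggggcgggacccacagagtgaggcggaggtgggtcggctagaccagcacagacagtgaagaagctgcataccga
Cry1: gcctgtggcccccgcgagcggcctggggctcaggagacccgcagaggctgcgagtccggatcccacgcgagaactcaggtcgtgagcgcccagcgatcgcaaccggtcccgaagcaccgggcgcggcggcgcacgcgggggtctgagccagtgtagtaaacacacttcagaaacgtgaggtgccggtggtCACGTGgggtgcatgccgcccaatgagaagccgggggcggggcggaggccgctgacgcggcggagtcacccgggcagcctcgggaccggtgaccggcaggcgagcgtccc
Per3: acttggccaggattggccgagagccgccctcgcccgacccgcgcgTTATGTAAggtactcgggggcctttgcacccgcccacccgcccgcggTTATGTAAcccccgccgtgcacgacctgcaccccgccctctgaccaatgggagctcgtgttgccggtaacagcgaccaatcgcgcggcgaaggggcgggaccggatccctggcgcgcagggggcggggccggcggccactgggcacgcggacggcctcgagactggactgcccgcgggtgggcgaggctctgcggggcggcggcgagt

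Immediate early genes encode transcription factors and feedback enzymes that cells switch on within minutes of a stimulus, without new protein synthesis. Of 32 tested, 20 were higher at ZT18 and none was called lower, with a median log2 difference of 1.505. The called genes made up 62.5% of the list, against 3.18% of all tested genes. Dusp1, a phosphatase that turns off MAP kinases and is induced by glucocorticoids (chromosome 17, 26505590 to 26562128), had the smallest p of all tested genes: 2040, 2043 and 2134 CPM at ZT18, against 666.6, 921 and 543.9 CPM at ZT0 (1.54 ± 0.13, adjusted p = 4e-06, edgeR). Nr4a1, an orphan nuclear receptor (chromosome 15, 101254269 to 101274795), had 766.2, 711.3 and 682.5 CPM at ZT18, against 124, 160.3 and 66.8 CPM at ZT0 (2.62 ± 0.27). Atf3, a stress-induced repressor (chromosome 1, 191170296 to 191218039), had 194.1, 145.8 and 165.9 CPM at ZT18, against 41.04, 19.6 and 17.4 CPM at ZT0 (2.69 ± 0.32). In none of these 3 genes did the groups overlap, which the naming rule required. The AP-1 subunit gene Fos had 2421, 2018 and 2250 CPM at ZT18, against 592.4, 971.6 and 376.9 CPM at ZT0, and its relative Fosl2 differed by 1.86 ± 0.21. The zinc finger factor Egr3 had 18.3, 18.6 and 15.9 CPM at ZT18, against 3.17, 2.97 and 1.79 CPM at ZT0. Klf6 (1.57 ± 0.20), Klf2 (1.49 ± 0.20), a flow-responsive factor of endothelium, and Btg2 (1.52 ± 0.18), an antiproliferative p53 target, were higher too. Of the 12 members not called, Ier5 alone had a negative log2 difference (-0.14).

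Of 32 NF-kB feedback genes and inflammatory mediators 8 were higher and 1 lower (median 0.49). This is a called share of 28.1%, against 3.18% of all tested genes. Tnfaip3, which encodes the ubiquitin-editing enzyme A20 (chromosome 10, 19000910 to 19015657), had 236.9, 289.6 and 291 CPM at ZT18, against 36.6, 75.1 and 16.5 CPM at ZT0 (2.67 ± 0.32, adjusted p = 9.27e-05, edgeR). Nfkbia, the inhibitor IkB-alpha, differed by 0.65 ± 0.11, Nfkbiz by 1.22 ± 0.20, Socs3, which restrains cytokine signalling, by 1.53 ± 0.26, and the prostaglandin synthase Ptgs2 by 2.68 ± 0.49. The coactivator gene Bcl3 was lower (-0.78). Outside these lists, Rgs2, which shuts off G protein signals, had 427.9, 481 and 511.6 CPM at ZT18, against 117.7, 182.8 and 84.6 CPM at ZT0, and the small GTPase gene Rrad had 135.9, 110.1 and 129 CPM, against 15.97, 34.9 and 14.7 CPM. Rgcc, a regulator of the cell cycle (2.71 ± 0.32), and Cpe, a prohormone carboxypeptidase (2.58 ± 0.57), were higher as well. Cpe moved with the adrenocortical genes described below: it had 8.54 and 26.1 CPM in the 2 chow ZT12 libraries, and 43.8 CPM in diet ZT18 replicate 1, against 11.5 and 18.9 CPM in the other two of that group. Their part in its difference was not tested. In Dusp1, Nr4a1, Fos, Tnfaip3, Nfkbiz, Rgs2 and Rrad, replicate 2 of ZT0 had the highest ZT0 level, and it also had the highest summed level of 26 T and NK cell markers, 3467 CPM, against 1155 and 883.6 CPM in the other ZT0 libraries. The ZT18 libraries had 2518, 2737 and 2839 CPM of these markers. Their part in the result was not tested. Without replicate 2 of ZT0, 24 of the immediate early genes were called higher.

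Of 22 glucocorticoid-induced genes, 4 were higher and none was called lower: Dusp1, Per1 and Nfkbia, given above, and Tsc22d3, which encodes the anti-inflammatory factor GILZ. The share called was 18.2%, against 3.18% of all tested genes. Tsc22d3 had 266, 320.5 and 274.8 CPM at ZT18, against 115.7, 108.1 and 125.8 CPM at ZT0 (1.30 ± 0.17, adjusted p = 0.000171, edgeR). The list's median of 0.13 lay near 0, and Fkbp5 (-0.21), Sgk1 (-0.08), Mt1 (-0.04) and Klf9 (0.02) did not pass the test. Corticosterone itself was not measured in these libraries.

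Chaperones keep proteins folded: heat shock proteins do so in the cytosol and mitochondria, under the control of heat shock factors, and BiP and its partners do so in the endoplasmic reticulum (ER). Of 27 heat shock chaperones and cofactors, 14 were higher at ZT18 and none was called lower (median 0.57). That is 51.9% called, against 3.18% of all tested genes. Dnaja1, an HSP40 co-chaperone (chromosome 4, 40722150 to 40737149), had 443.1, 486.6 and 480.1 CPM at ZT18, against 101.5, 165.6 and 91.2 CPM at ZT0 (1.98 ± 0.23, adjusted p = 6.52e-05, edgeR). Hspa8, the constitutive HSP70, had 614.4, 771.3 and 827.2 CPM at ZT18, against 284.6, 364.7 and 262.8 CPM at ZT0 (1.28 ± 0.15). Dnajb1 had 914.2, 1259 and 1243 CPM at ZT18, against 287.1, 482.5 and 286.3 CPM at ZT0 (1.69 ± 0.23). The ZT18 libraries were above the ZT0 libraries in each case. Hspd1, the mitochondrial HSP60, had 74.7, 78.4 and 68.7 CPM at ZT18, against 37.9, 37.8 and 37.9 CPM at ZT0. The inducible HSP70 genes Hspa1a (1.68 ± 0.33) and Hspa1b (1.41 ± 0.33) are near-identical copies, so reads could be split between them. Hsf1, which encodes the factor that drives these genes, differed by 0.39 and was not called.

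In the ER list 7 of 30 genes were higher and none was called lower (median 0.37). The share called was 23.3%, against 3.18% of all tested genes. Hspa5, which encodes BiP (chromosome 2, 34771970 to 34777547), had 1014, 1133 and 1162 CPM at ZT18, against 446.2, 527.2 and 528.8 CPM at ZT0 (1.14 ± 0.10, adjusted p = 4e-06, edgeR). The groups did not overlap, which the naming rule required. At the other chow times Hspa5 averaged 1723 CPM at ZT6 and 393.3 CPM at ZT12. Sdf2l1 (1.01 ± 0.16) and Dnajb9 (0.96 ± 0.16), both partners of BiP, were higher, as was Ppp1r15a (1.01 ± 0.15), which encodes the phosphatase subunit GADD34. The differences of Atf4 (0.15), Ddit3 (0.57) and Xbp1 (0.12), factors of the unfolded protein response, did not pass the test. Leaving out 1 library gave 4 to 11 higher members, the most without replicate 3 of ZT0.

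The cAMP response element TGACGTCA, which stands in 1.79% of all windows, was found in 2 of the 17 called immediate early genes with a window, Btg2 and Dusp1. The heat shock element GAANNTTCNNGAA (0.603%) was found in 2 of 11 called heat shock genes with a window, Hspd1 and Hsph1, which is 3 of 17 windows. The ER stress element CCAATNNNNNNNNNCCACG (0.119%) was found in 3 of 6 called ER genes with a window, Hsp90b1, Hspa5 and Pdia6. The windows of the genes with the smallest p in each group that hold its element are shown, with the elements in capitals. In Dusp1 (chr17:26508423-26508722, minus strand) these are the cAMP response element 143 bases and an E-box 126 bases before the start. In Hspd1 (chr1:55087883-55088182, minus strand, the second of its 2 windows) the capitals cover overlapping heat shock elements on both strands, and in Hspa5 (chr2:34771840-34772139, plus strand) the ER stress element 65 bases before the start.
Dusp1: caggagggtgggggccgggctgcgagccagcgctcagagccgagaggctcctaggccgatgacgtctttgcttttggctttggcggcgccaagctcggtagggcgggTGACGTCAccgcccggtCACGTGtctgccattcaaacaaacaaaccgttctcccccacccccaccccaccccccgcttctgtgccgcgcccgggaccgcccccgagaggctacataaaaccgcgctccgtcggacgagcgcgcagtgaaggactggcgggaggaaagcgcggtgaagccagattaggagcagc
Hspd1: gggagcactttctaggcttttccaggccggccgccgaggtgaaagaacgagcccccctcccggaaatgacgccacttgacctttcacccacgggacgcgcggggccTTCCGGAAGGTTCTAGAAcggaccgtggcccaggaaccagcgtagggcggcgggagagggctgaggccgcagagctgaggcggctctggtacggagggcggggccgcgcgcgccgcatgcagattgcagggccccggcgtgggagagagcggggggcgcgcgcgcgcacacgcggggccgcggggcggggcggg
Hspa5: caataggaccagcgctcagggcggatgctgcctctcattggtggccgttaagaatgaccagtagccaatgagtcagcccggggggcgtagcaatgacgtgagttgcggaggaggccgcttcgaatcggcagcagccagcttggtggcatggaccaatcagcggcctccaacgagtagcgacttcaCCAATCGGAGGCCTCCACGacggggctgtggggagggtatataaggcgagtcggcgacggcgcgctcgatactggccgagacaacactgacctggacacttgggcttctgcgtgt

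**Figure D3:**
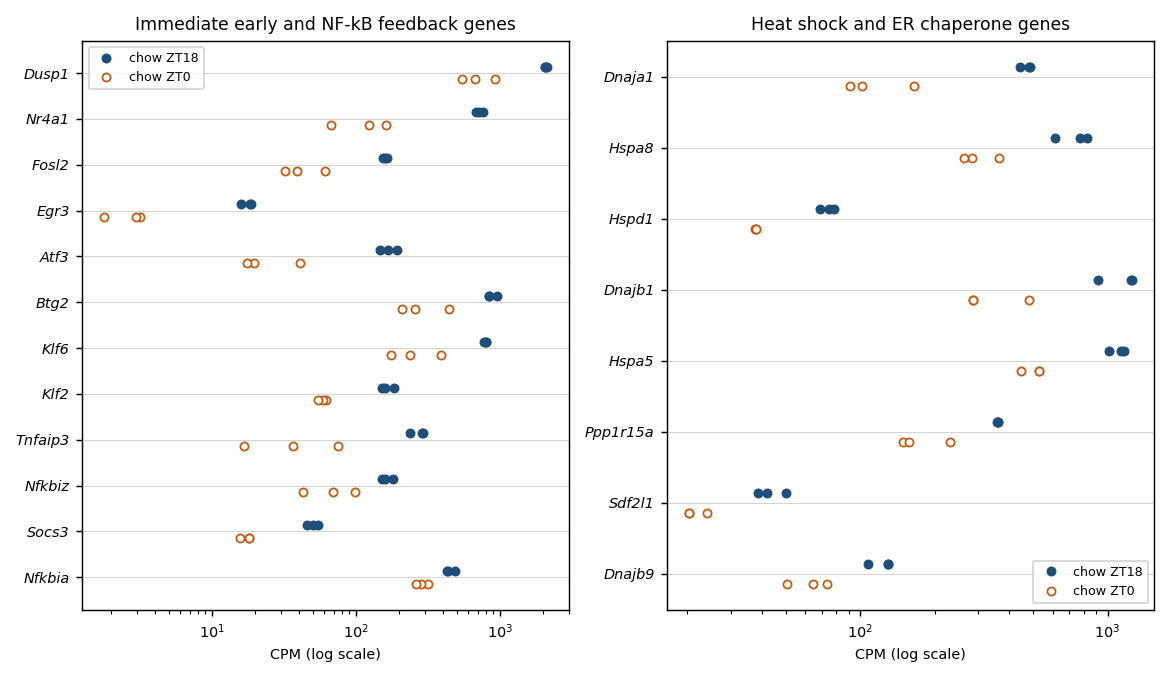
Level in CPM (horizontal log axis) of immediate early and NF-kB feedback genes (left panel) and of heat shock and ER chaperone genes (right panel), with a row for each gene. Filled points are the 3 chow ZT18 libraries and open points, drawn just below, the 3 chow ZT0 libraries. In every row the ZT18 points lie right of the ZT0 points, and the rows are a selection of called genes.

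Dendritic cells present antigen to T cells, and the plasmacytoid subset, which carries Siglech and depends on Irf8 and Spib, makes type I interferon after sensing nucleic acids through Tlr7 and Tlr9. Of 16 dendritic cell markers, 6 were lower at ZT18 and none was called higher (median -0.49). The share called was 37.5%, against 3.18% of all tested genes. Siglech, a sialic acid-binding receptor (chromosome 7, 55768178 to 55778925), had 111.6, 63.1 and 52.3 CPM at ZT18, against 395.5, 558.7 and 636.8 CPM at ZT0 (-2.81 ± 0.39, adjusted p = 0.000272, edgeR). Irf8, a lineage factor of dendritic cells and monocytes (chromosome 8, 120736358 to 120756694), had 220.6, 176.6 and 195.6 CPM at ZT18, against 458.7, 619.2 and 577.1 CPM at ZT0 (-1.48 ± 0.21). Ccr9, a chemokine receptor, had 43.9, 39 and 31.2 CPM at ZT18, against 79.8, 121.7 and 105.6 CPM at ZT0 (-1.43 ± 0.26). The groups were apart in all 3, which the naming rule required of Siglech. The integrin gene Itgax (-1.41 ± 0.22) and the lectin genes Clec10a (-1.55 ± 0.34) and Cd209a (-2.20 ± 0.51) were lower as well. Clec9a (-0.20 ± 0.21) and Xcr1 (-0.07 ± 0.28), which mark cross-presenting dendritic cells, and Ccr7 (0.30) were not called.

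A list of 29 genes known from plasmacytoid dendritic cells was put together after the values had been seen, so its counts are a description only: 25 were lower and none was called higher. Their summed level was 1241, 1045 and 1033 CPM at ZT18, against 2290, 3014 and 3037 CPM at ZT0, and lay between 1320 and 1544 CPM at ZT6 and between 1060 and 1957 CPM at ZT12. The 2 chow ZT12 libraries differed: replicates 1 and 2 had 19.2 and 3.92 CPM of Klra17 and 22.5 and 6.00 CPM of Lag3, but 242 and 264.2 CPM of Bst2. Replicate 2 of ZT12 was also the one with high adrenocortical genes, described below. How far such differences between single libraries enter the result was not tested. Spib had 30.8, 22.5 and 19.1 CPM at ZT18, against 87.6, 117.9 and 117.6 CPM at ZT0 (-2.16 ± 0.32). Pld4, a nuclease that degrades single-stranded nucleic acids, had 44.1, 41.04 and 40.1 CPM at ZT18, against 157, 233.6 and 220.7 CPM at ZT0 (-2.29 ± 0.35). Tlr9 had 1.21, 1.20 and 0.889 CPM at ZT18, against 3.86, 14.4 and 13.01 CPM at ZT0 (-3.24 ± 0.55), and all 3 genes were called in each fit that left out a library. Tcf4, the master factor of the lineage, which other cell types also express, overlapped at 249.9, 225.6 and 221.7 CPM at ZT18 and 289.4, 211.3 and 285.4 CPM at ZT0 (-0.17 ± 0.15). Bst2, induced by interferon in many cells, did not pass the test either (-0.21 ± 0.13).

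Several of the 12 largest lower differences by the naming rule belong to genes of the plasmacytoid list. That list was made after the values were seen, so the overlap is a description only. They were Klra17 (-3.12 ± 0.42), Lag3 (-2.81 ± 0.45), Smim5 (-2.77 ± 0.38), Klk1 (-2.73 ± 0.41), Lair1 (-2.42 ± 0.31) and Paqr5 (-2.37 ± 0.48). Of the 29 listed genes, Lag3 alone was also called lower at ZT18 under the diet (-1.80 ± 0.40, adjusted p = 0.028, edgeR). Klra17 (0.25) and Smim5 (-0.04) were not called there, while 6 of 26 T and NK cell markers were called lower. Lair1, an inhibitory collagen receptor (chromosome 7, 4003402 to 4063204), had 7.12, 8.96 and 9.88 CPM at ZT18, against 34.2, 56.3 and 49.3 CPM at ZT0. Klra17 and Klk1 belong to families of similar genes, so their counts are uncertain. The smallest p among the lower genes was that of Tmem221, a transmembrane protein gene (chromosome 8, 71554238 to 71558871), with 1.79, 2.62 and 3.18 CPM at ZT18, against 17.9, 27.9 and 21.9 CPM at ZT0 (-3.15 ± 0.28, adjusted p = 4e-06, edgeR). Rpgrip1, best known from photoreceptor cilia (chromosome 14, 52110704 to 52163546), had 2.96, 5.32 and 1.23 CPM at ZT18, against 27.3, 37.5 and 27.1 CPM at ZT0 (-3.27 ± 0.46). P2ry13, a receptor of ADP (-2.62 ± 0.40), Gapt, an adaptor of blood cells (-2.45 ± 0.40), Jaml, a leukocyte adhesion molecule (-1.89 ± 0.20), Pgam2, a glycolytic enzyme (-2.31 ± 0.29), Pafah1b3, a subunit of a lipid acetylhydrolase (-1.55 ± 0.19), and Pacsin1, an endocytic adaptor (-1.66 ± 0.22), were lower too. The naming rule took only genes whose 2 groups did not overlap, so their separation was set by the choice.

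Other myeloid genes were lower in part. Of 25 Kupffer cell and macrophage markers 3 were lower and none was called higher (12%, against 3.18% of all tested genes called). These were Mpeg1, a pore-forming protein (-1.95 ± 0.33), Tyrobp, an adaptor of many myeloid receptors (-1.82 ± 0.32), and the lysosomal Cd68 (-1.78 ± 0.37). The resident Kupffer cell receptor Clec4f overlapped, at 96.4, 123.9 and 97.6 CPM at ZT18 and 186.4, 117.7 and 169.5 CPM at ZT0, and was not called, nor were Timd4 (-0.81) and Marco (-0.64). Of 20 neutrophil and monocyte markers 3 were lower, among them Plac8 (-1.08 ± 0.22) and Ly6c2 (-0.75 ± 0.18), which other leukocytes also use. S100a8 was called higher on 41 counts over the 3 ZT18 libraries, with 0 counts at ZT0, and with it 20% of that list was called. In the antigen presentation list 7 genes were lower and 2 higher of 24 (37.5% called). The class II chain gene H2-Ab1 (chromosome 17, 34257689 to 34269419) had 287.9, 245.1 and 264.9 CPM at ZT18, against 408, 664.4 and 383.5 CPM at ZT0 (-0.87 ± 0.20), H2-Eb1 differed by -0.96 ± 0.18 and H2-Oa by -1.30 ± 0.25. The peptide transporter Tap2, of the class I route, was higher (0.77 ± 0.14). Replicate 2 of ZT0 had the highest level of these 3 class II genes, and without it 2 genes of the list were lower and 5 higher. Without replicate 2 or replicate 3 of ZT18, 2 were lower and 1 higher, and with the 6 compared libraries alone none was called.

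Of 32 interferon-stimulated genes 5 were lower and none was called higher, with a median of -0.45 and negative log2 differences in 28. The share called was 15.6%, against 3.18% of all tested genes. Negative differences were found in 12094 of the 22409 tested genes. Ifi27l2a had 27.1, 23.5 and 22.1 CPM at ZT18, against 49.5, 83.7 and 47.9 CPM at ZT0 (-1.32 ± 0.25). Oasl2, an antiviral synthetase-like gene, had 61.5, 59.1 and 60.8 CPM at ZT18, against 122.5, 100.9 and 154.1 CPM at ZT0 (-1.06 ± 0.24). Irf9, a subunit of the factor that carries interferon signals (-0.63 ± 0.14), and Irf7, which amplifies type I interferon and is itself abundant in plasmacytoid cells (-0.74 ± 0.19), were lower. The groups were apart in these 4 genes. Between 2 and 7 members were called lower when 1 library was left out, the fewest without ZT18 replicate 2 or ZT0 replicate 3.

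**Figure D4:**
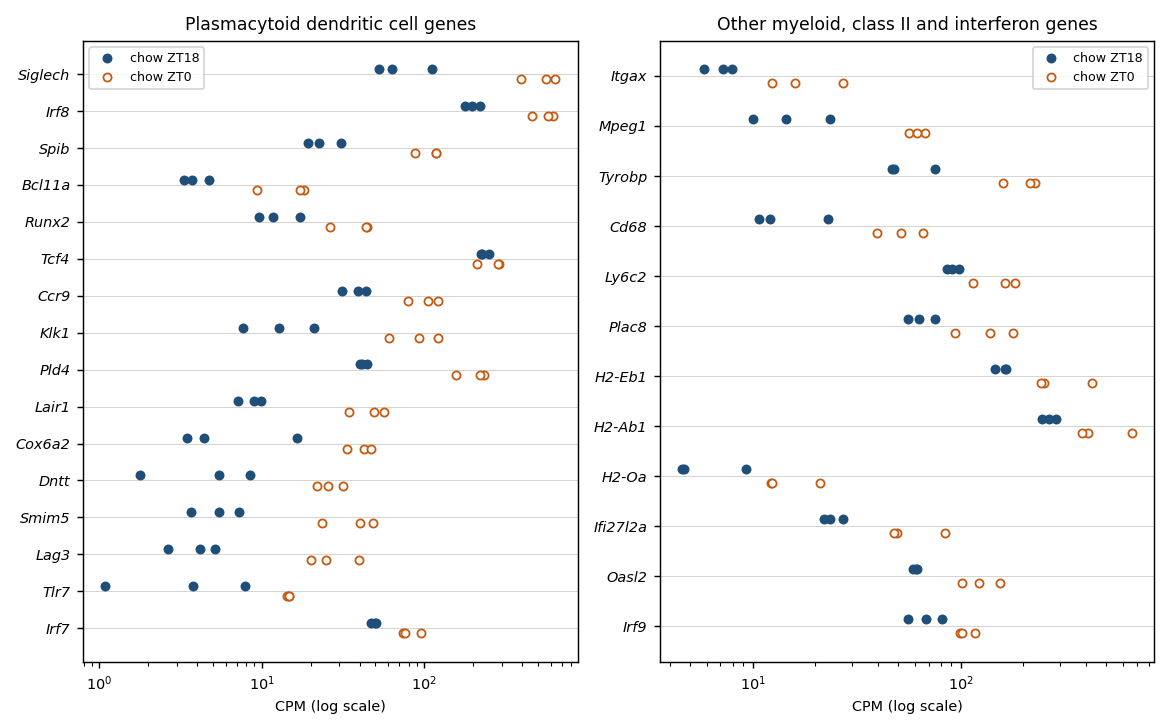
Level in CPM (horizontal log axis) of plasmacytoid dendritic cell genes (left panel) and of other myeloid, class II and interferon genes (right panel), with a row for each gene. Filled points are the 3 chow ZT18 libraries and open points, drawn just below, the 3 chow ZT0 libraries. The ZT18 points lie left of the ZT0 points in every row but that of Tcf4. The rows are a selection, and Bst2, Mctp2 and Clec4f, in which the groups overlapped, are not among them. In the whole list of 29 plasmacytoid genes, the groups did not overlap in 26.

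Genes of steroid hormone synthesis, known from the adrenal cortex, were higher at ZT18, but elsewhere in the series the level of several of them followed single libraries. Whether adrenal tissue was present in some samples was not tested, so these values are not shown to be a day-night change of liver cells. Of 15 adrenocortical markers 7 were called higher and none lower (46.7%, against 3.18% of all tested genes). Cyp11a1, which makes pregnenolone from cholesterol (chromosome 9, 58006411 to 58027023), had 72.6, 162.9 and 137.5 CPM at ZT18, against 0.153, 0.766 and 0.725 CPM at ZT0 (7.87 ± 1.14, adjusted p = 0.000409, edgeR). Star, which delivers that cholesterol to the mitochondrion, had 51.04, 131 and 165.7 CPM at ZT18, against 7.15, 2.68 and 4.4 CPM at ZT0 (4.60 ± 1.03). Cyp11b1, the last step to corticosterone in mice, had 20.2, 64.8 and 66.3 CPM at ZT18, against 0.0764, 0.0958 and 0 CPM at ZT0. All 3 ZT18 libraries were high, with replicate 1 the lowest. Hsd3b1 held 15606 counts over the ZT18 libraries and 0 over the ZT0 libraries, and Cyp21a1, which has a near-identical pseudogene, 8313 counts and 1 count. The 2 chow libraries at ZT6 had 1.09 and 1.90 CPM of Cyp11a1, and those at ZT12 had 0.727 CPM in replicate 1 and 62.4 CPM in replicate 2. Cyp11b1 (0.0454 and 24.1 CPM) and Cyp21a1 (0 and 56.8 CPM) split the ZT12 libraries the same way. Under the diet at ZT18, Cyp21a1 had 52.3, 1.105 and 0.521 CPM and Cyp11a1 62.2, 17.7 and 10.2 CPM, with replicate 1 the highest for both. At ZT0 under the diet, Cyp11a1 had 12.9, 12.25 and 24.3 CPM, while Cyp21a1 had 0.406, 0 and 0.1435 CPM. Leaving out 1 library gave 2 to 9 called members, with 2 without replicate 3 and 3 without replicate 1 of ZT0.

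In the lists of lipid genes, from 4.17% (cholesterol) to 9.52% (lipid droplet and uptake) of members were called, against 3.18% of all tested genes. Sqle, which makes squalene epoxide in cholesterol synthesis, had 7.04, 8.34 and 10.8 CPM at ZT18, against 36.1, 18.3 and 26.3 CPM at ZT0 (-1.62 ± 0.29), and was the only one called of 24 cholesterol genes, 21 of which had negative differences (median -0.33). Me1, the malic enzyme that supplies NADPH for fatty acid synthesis, had 6.66, 11.8 and 14.02 CPM at ZT18, against 1.95, 1.15 and 1.31 CPM at ZT0 (2.88 ± 0.63). Me1 was also high in the libraries with high adrenocortical genes, at 6.23 CPM in chow ZT12 replicate 2, against 1.32 CPM in replicate 1, and at 7.06 CPM in diet ZT18 replicate 1, against 4.89 and 3.16 CPM in the others; their part in its difference was not tested. The triglyceride-forming enzyme Dgat1 was higher (0.88 ± 0.16), the fatty acid receptor Cd36 lower (-0.58 ± 0.13), and Ucp2, a mitochondrial carrier, lower (-0.44 ± 0.09). The groups did not overlap in any of these 5 genes. Of 86 ribosomal protein genes 6 were lower (6.98%), among them Rps20 (-0.47 ± 0.11) and Rplp1 (-0.46 ± 0.12). Of 45 proteasome genes 3 were lower (6.67%), among them Psmd3 (-0.47 ± 0.11). Of 74 nuclear-encoded respiratory chain genes 3 were lower (4.05%), among them Atp5e (-0.41 ± 0.10). Such small differences depend on scaling, since the median of all tested genes moved by more than 0.1 between scalings. No member was called among 30 mitosis, 30 S phase, 23 hypoxia and 22 iron handling genes (edgeR). With 3.18% of all tested genes called, lists of this size would hold few calls or none, so these counts do not set them apart.

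Few members of the vessel and matrix lists were called, but their shares were not below the 3.18% of all tested genes. The share was 7.14% for endothelial markers and 6.25% for collagen and matrix genes. Of 28 endothelial markers 2 were lower. Lyve1, the hyaluronan receptor of sinusoids and lymphatics, had 397.9, 436.5 and 432.4 CPM at ZT18, against 679.8, 785.5 and 740.7 CPM at ZT0 (-0.80 ± 0.18), and Flt4, a receptor of VEGF-C, differed by -0.73 ± 0.18. Kdr overlapped, at 2662, 2834 and 2777 CPM at ZT18 and 2992, 1895 and 3290 CPM at ZT0 (0.02 ± 0.18). Of 32 collagen and matrix genes, Col4a2 of basement membranes (237.1, 246.5 and 236.7 CPM at ZT18, against 542.5, 339.1 and 634.5 CPM at ZT0) and Sparc (-0.61 ± 0.16) were lower. The inhibitor of matrix proteases Timp3 was higher (0.62 ± 0.15) and the aggrecanase gene Adamts4 lower (-2.54 ± 0.46). The chemokine Cxcl12, which retains leukocytes in tissue, had 26.6, 18.9 and 25.2 CPM at ZT18, against 10.6, 6.13 and 6.33 CPM at ZT0 (1.61 ± 0.28), and the adhesion molecule Vcam1 was higher (1.20 ± 0.32). Agtr1a, the angiotensin receptor, differed by 2.14 ± 0.39 and Notch1 by -0.54 ± 0.12. Of these genes, Flt4 and Sparc were called in 1 and Vcam1 and Notch1 in 2 of the 6 fits that left out a chow library. Among 23 tested stellate and fibroblast markers, only the neurotrophin receptor gene Ngfr was called (4.35%), on under 1 CPM in each library. Of 29 hepatocyte markers 2 were higher (6.9%), among them Fabp1 (1.1 ± 0.26), while Alb had 190.8, 140.7 and 132.4 CPM at ZT18 and 158, 168 and 118.1 CPM at ZT0.

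Whether the day-night difference depends on diet was asked with the same 2 times under CDA-HFD. There 378 genes were called between ZT18 and ZT0 (1.69% of those tested). Of the 713 genes called in chow, 70 were called in the same direction and 2 in the opposite direction under the diet. The difference between the diets was itself tested, and 218 genes (0.973% of those tested) were called for it, 165 of them among the 713. In 126 of these the gene was lower at ZT18 in chow and the difference was higher under the diet, and in 39 the reverse held. The same chow values enter both tests, so this overlap and these signs are in large part fixed by the selection. These counts rest on few libraries: 26 to 1069 genes were called for the difference when 1 library was left out, the fewest without diet ZT18 replicate 3 and the most without chow ZT0 replicate 2, and 954 without both chow libraries that stand apart.

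None of the 10 clock repressors was called between the times under the diet (median 0.06), where 1.69% of all tested genes were called. For 5 of the 10 repressors the difference between diets was called, against 0.973% of all tested genes. Per3 had 6.57 ± 0.31 CPM at ZT18 and 8.09 ± 2.65 CPM at ZT0 under the diet (SD, n = 3 each), against 33 ± 2.93 and 6.96 ± 1.56 CPM in chow. The difference of the log2 differences was -2.54 ± 0.31 (adjusted p = 0.000676, edgeR). Cry2 had 19.05 ± 5.61 CPM at ZT18 and 20.6 ± 5.16 CPM at ZT0 under the diet, against 40.1 ± 10.02 and 7.9 ± 0.82 CPM in chow (-2.45 ± 0.35). Tef (-2.30 ± 0.40) and Arntl (1.61 ± 0.37) were called for the difference as well. Of the immediate early genes 8 were higher under the diet and 8 were called for the difference, among them Dusp1, at 2557 ± 173.5 and 1609 ± 105.4 CPM under the diet and 2072 ± 53.2 and 710.5 ± 192.3 CPM in chow (-0.88 ± 0.18). Of the heat shock chaperones 8 were higher under the diet and none was called for the difference, as in Hspa8 (0.71 ± 0.15 under the diet, 1.28 ± 0.15 in chow).

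None of the 16 dendritic cell markers was called between the times under the diet, where 1.69% of all tested genes were called. Siglech had 1003 ± 217.8 CPM at ZT18 and 1031 ± 205.7 CPM at ZT0 under the diet, against 75.6 ± 31.6 and 530.3 ± 123.1 CPM in chow (2.77 ± 0.53, adjusted p = 0.0167, edgeR). Tmem221 had 47.1 ± 8.54 and 42.05 ± 7.6 CPM under the diet and 2.53 ± 0.7 and 22.6 ± 5.04 CPM in chow, which gave the smallest p of the difference (3.31 ± 0.37, adjusted p = 0.000492, edgeR), followed by Per3 and Jaml (2.32 ± 0.28). Of the 16 dendritic cell markers 5, of the 24 antigen presentation genes 5 and of the 32 interferon-stimulated genes 7 were called for the difference, each with a positive sign. Of all tested genes, 0.973% were called for it. Cd36 moved in opposite directions, with 392 ± 44.6 CPM at ZT18 and 221.7 ± 23.1 CPM at ZT0 under the diet, against 649.7 ± 27.6 and 970.6 ± 60.8 CPM in chow (1.40 ± 0.19). The summed endothelial markers were 2621 to 3632 CPM in the diet ZT18 libraries and 2129 to 2693 CPM in the diet ZT0 libraries, far below the chow values given above, and their part in the difference between diets was not tested.

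**Figure D5:**
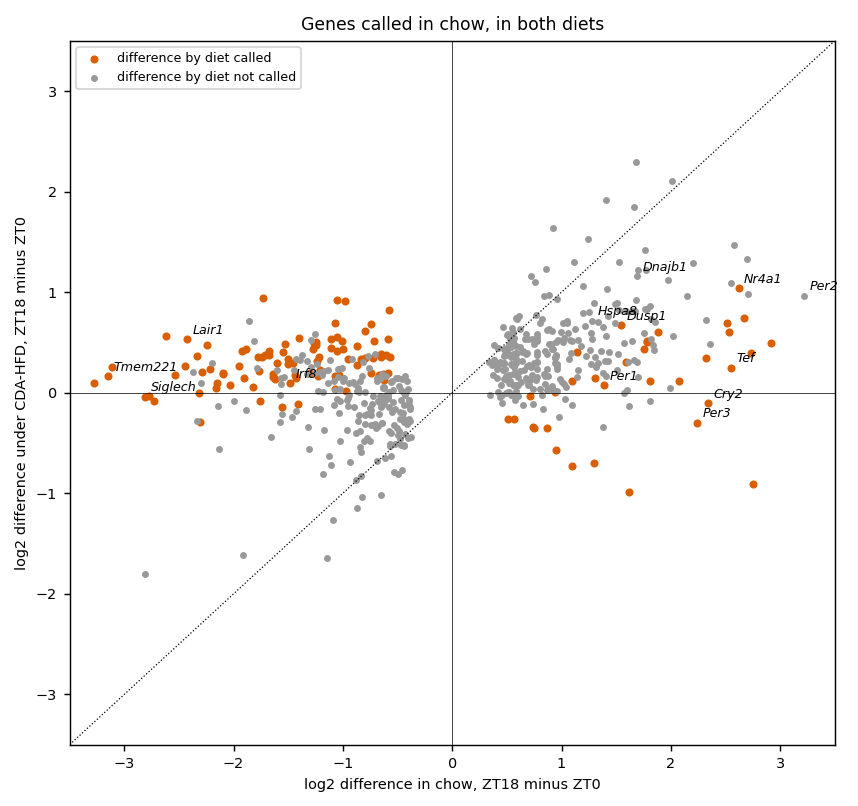
Log2 difference between ZT18 and ZT0 in chow (horizontal axis) and under CDA-HFD (vertical axis) for the 587 genes called in chow with a mean log2 CPM of at least 2; Cyp11a1 and Star lie outside the axes. Each point is a gene, orange where the difference between diets was called (126 genes), and the dotted line marks equal differences; the clock repressors Per3 and Cry2 and the dendritic cell genes Siglech and Irf8 lie near 0 on the diet axis.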

How the data were processed

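RNA-seq counts of 22 liver cell libraries were used. Per the submitters' processing notes, the tools were STAR 2.7.9a, HTSeq and DESeq2 and the build GRCm38 (mm10). The sources used here give neither the annotation nor the strand setting. The deposited values are raw read counts per gene, and the authors' normalized table was not used. Without a stated strand setting, reads from a gene and its antisense partner cannot be told apart, and near-identical genes may share reads.

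The counts were tested with edgeR 4.0.16 (R 4.3.3): filterByExpr over the 8 groups, TMM scaling, a mean for each group over all 22 libraries (14 residual degrees of freedom), the quasi-likelihood test and Benjamini-Hochberg adjustment over all 22409 tested genes, with calls at an adjusted p under 0.05. CPM use TMM-scaled library sizes, and an SE is the log2 difference divided by the square root of F. The difference by diet was a contrast in the same fit. Intervals and tests cover these libraries only. On simulated data for chow ZT18 against ZT0 (22409 genes, 200 changed), 21% of 2-fold and 42% of 4-fold changes were recovered, with 3 false among 66 calls.

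Named genes were the 12 higher and 12 lower with the largest difference and the 6 higher and 6 lower with the smallest p among called genes. They also had groups that did not overlap, a mean level of 2 or more in log2 CPM, and a call in the same direction without ZT18 replicate 1 and without ZT0 replicate 2. Added to these were every gene of the 3 clock lists, up to 4 called members of each other list with the smallest p, and the 5 genes with the smallest p by diet. Other named genes were chosen after their values were seen, and a few that the rule names are not reported here. The comparison, the gene lists and the tests were chosen with earlier results of these data known, and the plasmacytoid list after its values were seen. Alternatives were RLE scaling, library size alone, no filter, a filter at 5 mean CPM, DESeq2 1.42.0, limma 3.58.1 voom with quality weights, a replicate block, fewer libraries in the fit and each library left out. Promoters and coordinates came from RefSeq (GRCm38.p6) and GENCODE M21 tables; 21935 of the tested genes were found in the latter.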

Additional observations from a re-analysis of the deposited data

Results flagged for a closer look

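The results here were picked out because the log2 difference between ZT18 and ZT0 itself differed by diet (edgeR quasi-likelihood test of the interaction, Benjamini-Hochberg adjusted p under 0.05). Each value is the log2 difference under CDA-HFD minus that in chow, so a negative value means a smaller or opposite difference under the diet for a gene that was higher at ZT18 in chow.

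Among clock genes and their outputs the values were Per3 (-2.54), Cry2 (-2.45), Tef (-2.30), Wee1 (-1.69), Cry1 (-1.32), Per1 (-1.31), Nr1d2 (-1.29) and Arntl (1.61). Among immediate early, feedback and chaperone genes they were Egr3 (-2.34), Tnfaip3 (-1.93), Rrad (-1.82), Nr4a1 (-1.58), Rgs2 (-1.28), Dusp1 (-0.88) and Hspa5 (-0.74), and for the autophagy gene Atg5 -0.82. The steroid enzyme gene Cyp11a1 had the most negative value, -7.00. It had 62.2, 17.7 and 10.2 CPM at diet ZT18 and 12.9, 12.25 and 24.3 CPM at diet ZT0, against 0.153, 0.766 and 0.725 CPM at chow ZT0. Its level also differed between libraries of the same group, with 0.727 and 62.4 CPM in the 2 chow ZT12 libraries. Whether adrenal tissue was present in some samples was not tested. Since the chow difference is subtracted, genes lower at ZT18 in chow had, largely by selection, positive values. These were, for dendritic cell and plasmacytoid genes, Siglech (2.77), Irf8 (1.58), Itgax (1.95), Ccr9 (1.57), Klra17 (3.37), Smim5 (2.74), Klk1 (2.65) and Lair1 (2.95). For other myeloid, class II and interferon genes they were Mpeg1 (2.21), Cd68 (2.13), Tyrobp (1.88), Plaur (1.98), Mmp12 (4.34), H2-Oa (1.5), H2-Ab1 (1.33), H2-Eb1 (1.29), Oasl2 (1.47), Irf7 (1.43) and Irf9 (0.82). For vessel, matrix and lipid genes they were Col4a2 (1.77), Lyve1 (1.15), Sparc (0.98), Adamts4 (2.72), Ngfr (6.61), Cd36 (1.40) and Sqle (1.76). The rest were Rpgrip1 (3.37), Tmem221 (3.31), P2ry13 (3.19), Gapt (2.71), Jaml (2.32), Pgam2 (2.01), Pafah1b3 (1.42) and Klra4 (4.23). Ngfr and Klra4 rest on few counts in chow, and Klra genes have near-identical relatives.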

How the results depend on the processing

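None of the called genes picked by the naming rule changed direction in the alternative runs made for it. For the clock genes named but not called, a change of direction was not recorded. The count of 713 genes called in chow became 1370 without a filter, 1477 with DESeq2, 1155 with limma voom, 199 with the 6 libraries alone, 228 with the chow libraries alone, 1293 without both libraries that stand apart and 453 to 1357 with 1 library left out. The 332 higher genes became 602 with library size only, 664 without a filter, 648 with DESeq2, 653 with voom, 116 with the 6 libraries, 144 with the chow libraries, 779 without both libraries and 185 to 799 with 1 library left out. The 381 lower genes became 706 without a filter, 829 with DESeq2, 83 with the 6 libraries and 84 with the chow libraries. Without the rRNA entry CT010467.1, an alternative added after seeing the data, library size scaling called 727 genes, 290 higher and 437 lower.

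The 378 genes called under the diet became 991 with library size only, 1144 without a filter, 702 at a mean CPM of at least 5, 1107 with DESeq2, 857 with voom, 847 with 6 libraries, 762 with the diet libraries alone and 58 to 180 with 1 diet library left out, but 784 without chow ZT0 replicate 2 and 813 without both chow libraries that stand apart. The 218 genes called for the difference by diet became 1163 without a filter, 701 with DESeq2, 598 with voom, 954 without both libraries and 26 to 1069 with 1 left out. With the replicate number as a block, 642 genes were called in chow, 272 under the diet and 116 for the difference. Deviations of same-numbered libraries from their group means correlated at 0.0415, 0.0395 and -0.0359 in chow, and not every library correlated best with its own number. Deviations from a mean of 3 libraries cannot exclude a pairing, and the labels do not say what a shared number means.

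Among the lists, ER chaperones (7 called) became 12 with library size only, 4 with the 6 or the chow libraries and 4 to 11 with 1 left out. NF-kB genes (9) became 16 without a filter and 3 with 6 libraries, and bZIP factors (2) became 1 with 6 libraries. Adrenocortical markers (7) became 4 with voom and 2 to 9 with 1 left out. Antigen presentation genes (9) became 0 with 6 libraries, 1 with the chow libraries and 3 to 9 with 1 left out. Dendritic cell markers (6) became 3 with 6 or chow libraries. Neutrophil and monocyte markers (4) became 9 without a filter, 1 with 6 or chow libraries and 2 to 6 with 1 left out. Of the named genes, 16 lost their call with library size only, 20 with voom, 48 with 6 libraries, 10 with the block and 0 with DESeq2. The cause was not tested. With 3 libraries a group, the simulated 2-fold changes were mostly missed, so a gene not called may still differ.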

Other observations

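Of 26 T and NK cell markers, 2 were higher at ZT18 (Cd28 and Klrb1c) and 3 lower (Cd8b1, at -1.15, Gzma, at -1.92, and Klra4, at -4.44 on the log2 scale). The called members, 19.2% of the list against 3.18% of all tested genes, thus moved in no single direction. Over the whole list, 18 log2 differences were positive and 8 negative (median 0.35). The genes below are in no fixed list and were picked after their values had been seen; Lag3, also linked to activation, was lower (-2.81). Several genes linked to activation were higher. Cd3e, a chain of the T cell receptor complex, overlapped, but only through replicate 2 of ZT0. Cell number and RNA per cell cannot be told apart in these genes. The activating receptor gene Klrk1 had 150.3, 141.1 and 146.9 CPM at ZT18, against 29.1, 67.8 and 25.9 CPM at ZT0 (log2 difference 1.84 ± 0.29, adjusted p = 0.000938, edgeR). Cd69, an early activation marker that holds lymphocytes in tissue, had 240.9, 263.5 and 282.9 CPM at ZT18, against 63.2, 144 and 39.4 CPM at ZT0 (adjusted p = 0.00192, edgeR). Both genes were called in all 6 fits that left out a chow library. Xcl1, a chemokine, and Fasl, a death ligand, were called with adjusted p of 0.0141 and 0.0255 (edgeR), and in 4 and 2 of those fits. Ifng, which encodes interferon gamma, had 175.4, 220.9 and 230 CPM at ZT18, against 34.9, 165.7 and 23.6 CPM at ZT0, and missed the threshold (adjusted p = 0.0717, edgeR). Cd3e had 110.6, 123.2 and 136.9 CPM at ZT18, against 67.2, 226.2 and 50.3 CPM at ZT0. In each of these genes replicate 2 of ZT0 was the highest of the ZT0 libraries.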
